A study of Homo sapiens with 6 samples.

Results

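The 10 genes described here encode the NF-κB subunits and proteins that inhibit or regulate them: NFKB1, NFKB2, RELA, RELB and REL on the one side, NFKBIA, NFKBIE, NFKBIZ, TNFAIP3 and BCL3 on the other. They are a named list out of 19103 autosomal protein-coding genes, and no measured value enters the rule that picks their peaks. Each was described by the ATAC-seq peaks that overlap its gene body or the 50 kb on either side, a stretch called its window below. The windows held 122 of 89416 E545K peaks, 133 of 106747 H1047R peaks and 125 of 98910 WT peaks. Joining touching peaks across the lists gave 149 regions in the windows out of 120615. Of these 149, 65.1% were in all 3 lists, 5.37% in both mutant lists, 4.7% in E545K and WT, 8.05% in H1047R and WT, 4.7% in E545K alone, 9.4% in H1047R alone and 2.68% in WT alone. Over all 120615 regions the shares were 61.2%, 4.62%, 2.13%, 9.76%, 4.52%, 11.0% and 6.73% in the same order.

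The assay, ATAC-seq, maps accessible chromatin through the insertions that the Tn5 transposase makes there, and the cells were MCF-10A, a non-tumorigenic human breast epithelial line. The tested cells were MCF-10A knock-in lines with PIK3CA E545K, a helical-domain mutation of the catalytic PI3K subunit, or PIK3CA H1047R, a kinase-domain mutation, and the controls were parental cells with WT PIK3CA. The knock-ins were kept without EGF (0 ng/ml) and the parental cells with 20 ng/ml EGF. For the last 24 h all were in 0.2 ng/ml EGF and 1% stripped serum, so genotype and maintenance medium cannot be told apart. Insulin, hydrocortisone and cholera toxin were in all media. The labels do not say how many clones stand behind each knock-in.

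Each genotype had 2 samples, 6 in all, but 1 pooled peak list, so there are no values per sample, the sequencing depth behind a list is unknown, and samples could not be tested against each other. Every difference below describes 3 lists without a replicate check. The E545K list covered 69.7 Mb with a median peak width of 539 bp, the H1047R list 72.4 Mb with 466 bp and the WT list 67.4 Mb with 466 bp. List length and peak width thus moved with genotype, and their part in the differences below was not tested. Of 10 basal and mammary epithelial marker genes, 9 had a promoter peak in each list, while TP63 had none at its canonical start. Of 8 immune markers 6 had a promoter peak in no list, CD68 had one in each and SPI1 in E545K alone, and of 4 endothelial markers 2 had none, KDR had one in each list and CDH5 in WT alone.

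NF-κB factors are dimers of Rel-family proteins. RELA, RELB and REL carry the transactivation domains, and NFKB1 and NFKB2 encode precursors that are processed to the subunits p50 and p52. In resting cells inhibitors such as IκBα (NFKBIA) and IκBε (NFKBIE) hold the dimers in the cytoplasm until IκB kinase marks them for degradation. Several of these genes are themselves transcribed by NF-κB, which closes a feedback loop.

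The DNA element that NF-κB dimers bind, the κB motif, was sought on both strands of the RefSeq promoter sequences (GRCh38.p14, 250 bp before to 50 bp after a start), which include the canonical start of 8 of the 10 genes. A match was found in 7 of these 8, RELA being the exception, against 11.3% of 35116 RefSeq promoters. A strict form, which leaves only the central pair of letters free, stood in 5 of 8, NFKB1, NFKB2, REL, NFKBIA and TNFAIP3, against 1.61% of all promoters. Both background shares include alternative starts, while the 8 are canonical starts only. The 30 bases around the matches are shown because they show where the κB letters stand in promoters that were open in every list. Capitals mark the matched letters, positions count from the transcription start as 1, and each line reads 5′ to 3′ on the strand of the gene.
NFKB1 (chr4:102501300-102501329, plus strand, match at −49 to −40): cgacgtcagtGGGAATTTCCagccaggaag
NFKB2 (chr10:102395674-102395703, plus strand, match at −21 to −12): tggtattttcGGGACTTTCCtaagctgctc
REL (chr2:60881518-60881547, plus strand, overlapping matches from −47 to −37): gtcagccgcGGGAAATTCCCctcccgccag
NFKBIA (chr14:35404811-35404840, minus strand, match at −81 to −72): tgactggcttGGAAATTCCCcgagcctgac
TNFAIP3 (chr6:137867188-137867217, plus strand, matches at −67 to −58 and −55 to −46): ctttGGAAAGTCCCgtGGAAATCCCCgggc
NFKBIZ (chr3:101849265-101849294, plus strand, match at −239 to −230): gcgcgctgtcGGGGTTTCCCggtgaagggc
NFKBIZ, an upstream start (chr3:101827757-101827786, plus strand, match at −223 to −214 from that start): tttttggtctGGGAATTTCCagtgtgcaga
BCL3 (chr19:44748700-44748729, plus strand, match at 3 to 12): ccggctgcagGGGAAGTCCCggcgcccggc

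The same 10 letters, GGGAATTTCC, occur in NFKB1 and at the upstream NFKBIZ start as printed, and in NFKBIA and REL on the other strand. Likewise GGGACTTTCC occurs in NFKB2 as printed and in TNFAIP3 on the other strand. NFKB2 held a second canonical match at −176 to −167. Its upstream start at 102394578 held 3 more, which lie between −107 and −69 from that start. Other RefSeq starts of NFKB1 (102501934), NFKB2 (102394110) and RELA (65663857) held 0 matches each. A match describes letters and does not show that a factor was bound.

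All 10 genes had a peak within 1 kb of the canonical start in all 3 lists, against 65.5% of the 19103 genes. The promoter peaks were also large for their lists. Size is given as the area, the authors' own value per peak, the caller's signal integrated over the peak in arbitrary units, which grows with width as well as height. It describes and ranks peaks within a list; areas of different lists stand side by side below, and no change is read from them. The median promoter area of the 10 genes was 6343 in E545K, 6837 in H1047R and 6479 in WT, where that of all genes with a promoter peak was 3138, 3638 and 3508 in the same order of lists. In each list 9 of the 10 lay above that median, and NFKBIE lay below it.

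**Figure D1:**
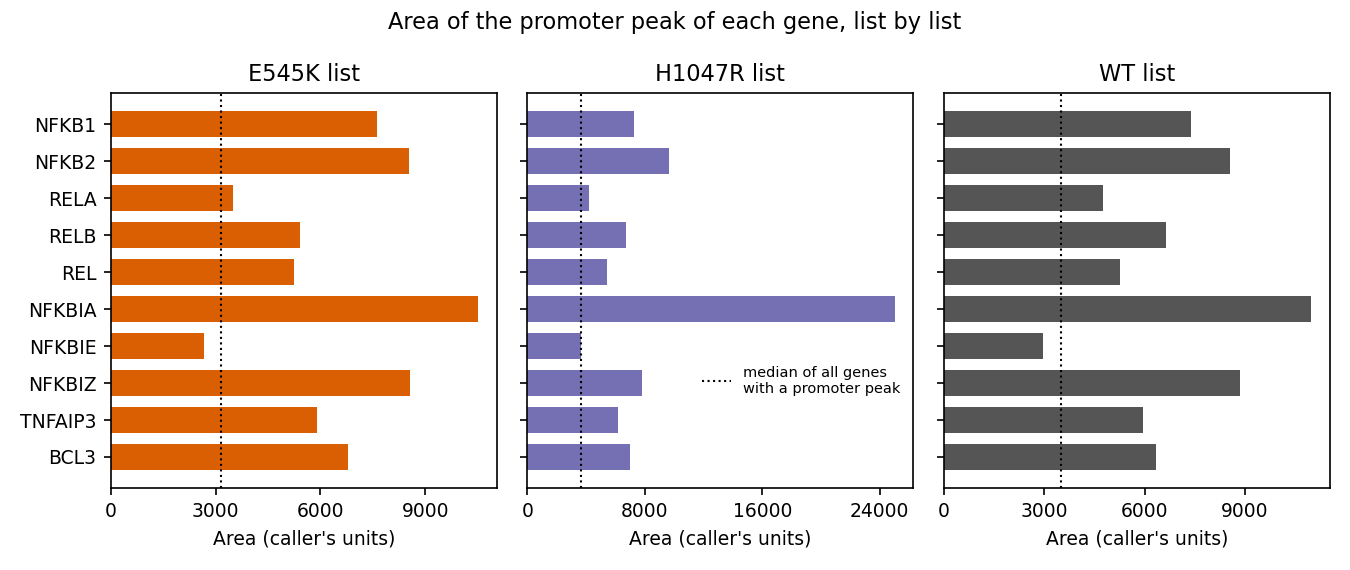
Area of the promoter peak (x axis, the peak caller's units, a scale of its own in each panel) for each of the 10 genes in the E545K, H1047R and WT lists; the dotted line is the median over all genes with a promoter peak in that list. NFKBIA has the longest bar in each panel and NFKBIE the shortest, the only bar that does not reach the dotted line.

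Among the subunits, NFKB1 (ENSG00000109320.14, hg38 chromosome 4, 102501330 to 102617302, plus strand), which encodes the p50 precursor, had a promoter peak with an area of 7608 in E545K, 7287 in H1047R and 7393 in WT. It ranked in the top 1.38%, 1.51% and 1.55% of the E545K, H1047R and WT lists, and its width differed by few bases (2286, 2276 and 2270 bp). The rest of this long gene was thinly covered. The gene body was covered by peaks over 2.76% in E545K, 3.7% in H1047R and 3.04% in WT. Of the 20 regions in the NFKB1 window, 10 were in all 3 lists, 5 in H1047R and WT, 2 in E545K alone, 2 in H1047R alone and 1 in both mutants. None of those missing from a list was a strong peak, that is, in the upper 50% of its list by area. An intronic H1047R peak without an E545K partner (102599483 to 102599805, area 616.0) had a summit −log10 p of 4.69. The list's median was 4.14. The largest of the E545K regions was an intronic peak of 561 bp and area 573.5, 74232 bp past the start.

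NFKB2 (ENSG00000077150.21, chromosome 10, 102394110 to 102402524, plus strand), which encodes the p52 precursor, lies in a dense stretch with 4 other coding starts in its window. Its promoter peak spanned 3419 bp in E545K, 2922 bp in H1047R and 2754 bp in WT, with areas of 8532, 9657 and 8557 in the same lists. The summit lay over 1 kb upstream of the canonical start, at −1334 in E545K, −1334 in H1047R and −1328 in WT. That is between the upstream NFKB2 starts at 102394110 and 102394578. Gene body coverage came to 77.9% in E545K, 58.0% in H1047R and 62.9% in WT. A single E545K peak of 3894 bp ran over the later part of the gene, where H1047R held 2 peaks of 1204 and 1154 bp and WT 2 of 1319 and 1577 bp.

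Just past the 3′ end of NFKB2, over the neighbouring gene PSD, the region from 102402986 to 102409863 was covered over 6628 bp in E545K, 6382 bp in H1047R and 2194 bp in WT. E545K held 3 peaks there and H1047R a single one with an area of 5413. The last E545K peak, in a PSD intron (102406566 to 102409863, area 984.1), was the strong E545K peak of these windows with no overlapping WT peak. Its summit −log10 p was 2.41, below the list's median of 3.97. The gene-dense window as a whole was covered over 21.1% in E545K, 20.2% in H1047R and 15.1% in WT. Upstream of NFKB2 a peak at 102391554 to 102392222, with the summit at −4022, was in H1047R (area 670.5) and E545K (area 553.7) but not in WT. It was strong by area in the H1047R list, with a summit −log10 p of 3.63, below the list's median of 4.14. It held no κB match and no AP-1 match (TGANTCA, the element of the FOS and JUN factors). A further strong H1047R peak lay at the upstream edge of the window, in a GBF1 intron (102344060 to 102344479, area 1014). This peak overlapped a WT peak of area 331.8 and no E545K peak. Its summit −log10 p was 4.81, above the list's median of 4.14.

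RELA (ENSG00000173039.20, chromosome 11, 65653599 to 65663090, minus strand), which encodes p65, the partner of p50 in the classical dimer, had the smallest promoter peak of the 5 subunits in each list. Its area was 3496 in E545K, 4201 in H1047R and 4756 in WT, in the top 8.47%, 6.16% and 4.98% of those lists. The largest peak of its window was not its own but lay at the promoters of PCNX3 and MAP3K11 (area 9540 in E545K, 10550 in H1047R and 11040 in WT). Peaks covered 16.2% of the RELA body in E545K and 10.6% in both H1047R and WT. The bases covered in E545K alone lay at the gene's ends, where the promoter peak was 2114 bp wide in E545K against 1878 bp in H1047R and WT, and where a peak past the 3′ end reached into the gene in E545K but stopped short of it in the other lists. No strong peak of the RELA window lacked a partner in another list.

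RELB (ENSG00000104856.15, chromosome 19, 45001461 to 45038192, plus strand), whose product pairs with p52 in the alternative pathway, had a promoter area of 5426 in E545K, 6717 in H1047R and 6630 in WT. Its 9, 12 and 10 window peaks in E545K, H1047R and WT covered 6.61%, 7.52% and 6.62% of the window. A strong H1047R peak absent from both other lists lay at the far edge of the window (44951341 to 44951846, area 640.5), with its summit at −49921 from the start. It sat just inside the strong peaks, at the top 49.9% of its list, and its summit −log10 p of 3.73 was below the list's median of 4.14.

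REL (ENSG00000162924.16, chromosome 2, 60881491 to 60931612, plus strand), which encodes c-Rel, had a promoter peak of nearly one width in the lists (1945 bp in E545K, 1932 bp in H1047R and 1925 bp in WT). Its promoter area was 5254 in E545K, 5438 in H1047R and 5264 in WT, and 8 of its 9 regions were in all 3 lists. The ninth was the strong WT peak of these windows that neither mutant list held. It lay between genes at 60856000 to 60856586, with its summit at −25468 from the start and an area of 810.7. Its summit −log10 p was 3.83, below the list's median of 4.25.

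Among the inhibitors, NFKBIA (ENSG00000100906.12, chromosome 14, 35401079 to 35404749, minus strand), which encodes IκBα, had the largest promoter peak of the 10 genes in each list. The peak ran over 3809 bp in E545K, 9002 bp in H1047R and 3763 bp in WT. It ranked 432nd by area in E545K (10520), 33rd in H1047R (25030) and 383rd in WT (10990). The H1047R peak is a single call over a stretch that the other lists divide. The region from 35396625 to 35405652 was called as 2 peaks in E545K, 1 in H1047R and 3 in WT, yet 8542, 9002 and 8136 bp of it were covered in those lists. Peaks covered 90.6%, 100.0% and 96.3% of the NFKBIA body in E545K, H1047R and WT. All 8 regions of the window were in all 3 lists, so NFKBIA had no peak without a partner.

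NFKBIE (ENSG00000146232.17, chromosome 6, 44258166 to 44265788, minus strand), which encodes IκBε, stood at the other end. Its promoter peak had an area of 2669 in E545K, 3632 in H1047R and 2948 in WT, in the top 12.7%, 8.02% and 11.4% of those lists. H1047R held a further small promoter peak (350 bp, area 204). The window holds 8 other coding starts, and its largest peak in each list was at the promoter of the chaperone gene HSP90AB1. A strong H1047R peak at the promoter of MYMX, a muscle fusion gene (44216837 to 44217609, area 739.6), overlapped a WT peak of 284 bp and no E545K peak.

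NFKBIZ (ENSG00000144802.11, chromosome 3, 101827991 to 101861022, plus strand) encodes IκBζ, a nuclear IκB protein that acts as a cofactor of p50 dimers at a subset of target genes. Its promoter peak had an area of 8574 in E545K, 7787 in H1047R and 8840 in WT, in the top 0.942%, 1.21% and 0.877% of those lists. Past the promoter peak the lists parted. Between it and the 3′ end of the gene E545K held 6 peaks, H1047R 0 and WT 4. The 4 WT peaks, of areas 274.9 to 563.0, each overlapped an E545K peak, and 2 of these E545K peaks were strong (101851646 to 101852421, area 660.4, and 101857019 to 101857922, area 748.2). The other 2 E545K peaks, of 925 and 1655 bp, were in neither other list. All peaks of this stretch were shallow. Their summit −log10 p was 2.13 to 2.88 in E545K and 2.6 to 2.91 in WT, below the list medians of 3.97 and 4.25. Gene body coverage was 23.7% in E545K, 8.19% in H1047R and 15.1% in WT.

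Past the 3′ end the lists also parted. A peak beginning just past the gene end ran over 4252 bp in E545K (area 8761) and 4249 bp in WT (area 8151), and it ranked in the top 0.873% and 1.15% of those lists. In E545K it was larger than the NFKBIZ promoter peak. H1047R held 2 peaks there that together covered 2834 bp, with areas of 214.8 and 1712. Upstream, H1047R did not hold less: the peak at the upstream NFKBIZ start, the start with the strict κB match shown above, was 954 bp wide in E545K, 938 bp in H1047R and 935 bp in WT. In each list the midpoint of this peak lay in an exon of the neighbouring gene NXPE3. The stretch shown above for that start also overlaps an NXPE3 exon. A peak in an intron between the upstream and the canonical start was wider in H1047R, at 666 bp, than in E545K (214 bp) and WT (228 bp).

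TNFAIP3 (ENSG00000118503.18, chromosome 6, 137867214 to 137883314, plus strand) encodes A20, a ubiquitin-editing enzyme that shuts off signalling upstream of IκB kinase. Its promoter area was 5894 in E545K, 6172 in H1047R and 5950 in WT, and the widths were 2139, 2136 and 2087 bp in the same lists. Inside the gene both mutant lists held 3 peaks that WT lacked. They lay 2130, 4928 and 7118 bp past the start (midpoints of the merged regions), with areas of 322.1, 216.1 and 320.5 in E545K and 303.4, 217.8 and 688.0 in H1047R. Their summit −log10 p was 2.21, 2.21 and 3.15 in E545K and 2.43, 2.01 and 4.37 in H1047R. The list medians were 3.97 and 4.14. A further intronic peak was 1029 bp wide in E545K, 937 bp in H1047R and 522 bp in WT. Gene body coverage was 27.6% in E545K, 26.9% in H1047R and 13.3% in WT.

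H1047R alone held 4 further TNFAIP3 regions. The largest was a peak of 2151 bp just past the 3′ end (137883361 to 137885511, area 1618, top 21.9% of the list), with its summit 17364 bp past the start. Its summit −log10 p was 3.73, below the list's median of 4.14. The other 3 had areas of 276.3 to 361.8. WT held no TNFAIP3 region of its own, and 1 region was shared by E545K and WT. The window was covered over 8.38% in E545K, 10.5% in H1047R and 5.93% in WT.

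Of the 2 strong H1047R peaks at TNFAIP3 without a WT partner, the one past the 3′ end held 0 κB matches and 1 AP-1 match, and the intronic one (137874158 to 137874546) held 1 of each. The 120 bases around the summit of this intronic peak are shown because both matches lie there. Capitals mark κB and AP-1 matches. The κB match is of the strict form on the other strand and begins 44 bp before the summit.
TNFAIP3 intron (chr6:137874271-137874390, plus strand): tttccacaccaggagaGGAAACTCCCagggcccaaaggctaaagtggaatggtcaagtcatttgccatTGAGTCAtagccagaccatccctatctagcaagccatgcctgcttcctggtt

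**Figure D2:**
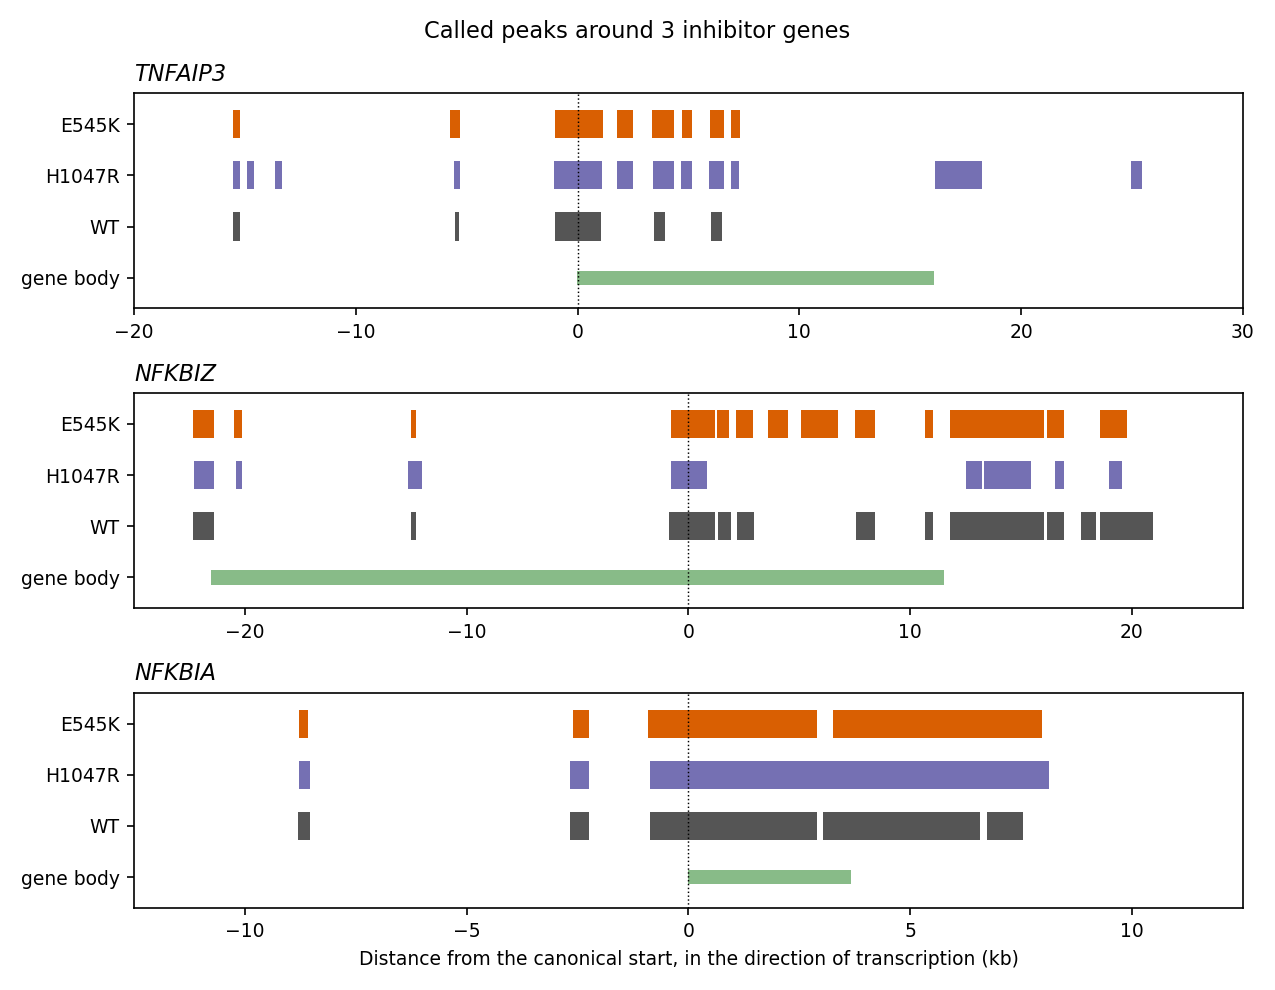
Called peaks (coloured blocks, to scale) of the E545K, H1047R and WT lists around TNFAIP3, NFKBIZ and NFKBIA, against the distance from the canonical start in kb in the direction of transcription; the green bar is the gene body. TNFAIP3 shows intragenic blocks in E545K and H1047R that WT lacks, NFKBIZ shows none in H1047R between the promoter and the gene end, and NFKBIA is filled in all 3 lists, as a single block in H1047R.

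BCL3 (ENSG00000069399.15, chromosome 19, 44747705 to 44760044, plus strand) encodes a nuclear IκB protein that binds p50 and p52 homodimers. Its promoter peak had an area of 6792 in E545K, 6956 in H1047R and 6328 in WT, and its summit lay −1102, −1102 and −1091 bp from the canonical start, closer to the upstream end of the gene model. Of 16 regions 13 were in all 3 lists. No strong BCL3 peak lacked a partner. In H1047R the largest peak of the window was at the promoter of BCAM (4544 bp wide, area 7082), and in WT it was a peak between genes with its summit at −6620 from the start (area 6388).

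Peaks without a partner, meaning without an overlap of at least 1 bp with a peak of the other list, were about as frequent in the 10 windows as in the lists. Shares carry an exact (Clopper-Pearson) 95% interval, which covers counting error only and treats peaks of a window as separate. E545K peaks without a WT partner numbered 16 of 122, or 13.1% (7.69 to 20.4), against 12.6% of the E545K list. H1047R peaks without a WT partner numbered 22 of 133, or 16.5% (10.7 to 24), against 17.9% of the list. WT peaks without an H1047R partner numbered 11 of 125, or 8.8% (4.48 to 15.2), against 11.0%. E545K peaks without an H1047R partner numbered 14 of 122, or 11.5% (6.42 to 18.5), against 9.14%, and H1047R peaks without an E545K partner 26 of 133, or 19.5% (13.2 to 27.3), against 23.6%. For these 5 shares the list's value lay inside the interval. WT peaks without an E545K partner were the exception, 16 of 125 or 12.8% (7.5 to 20.0) against 20.3%, just above it. Peaks without a partner were small, with median areas of 269 to 372, against 1090 to 1440 for those with one.

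**Figure D3:**
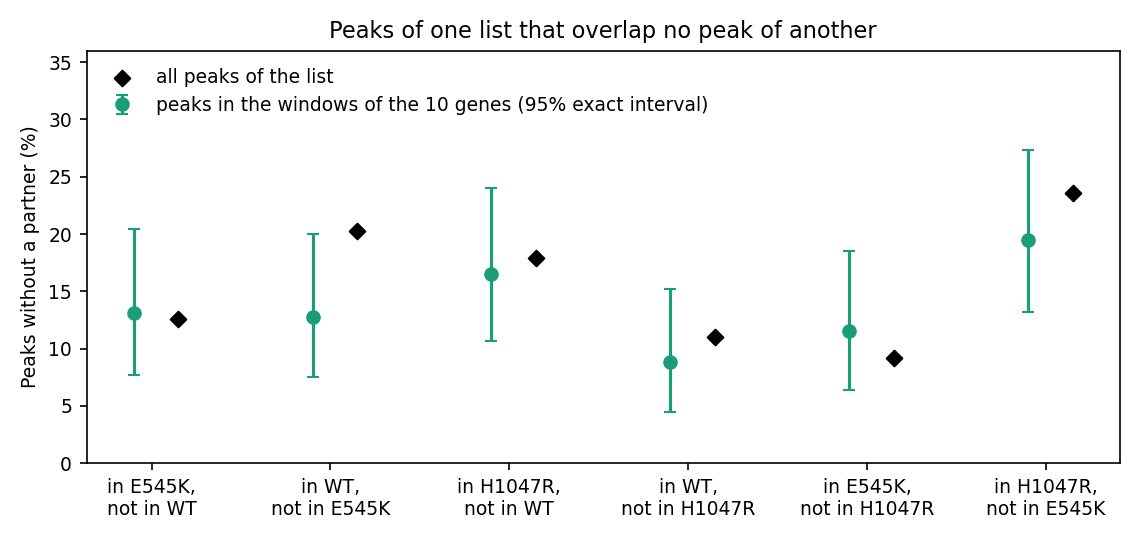
Share of peaks (y axis, %) that overlap no peak of another list, for the 6 ordered pairs of lists named on the x axis; circles with bars are the peaks in the windows of the 10 genes with their exact 95% intervals (counting error only) and diamonds all peaks of the list. The diamond lies inside the interval for 5 pairs and just above it for WT peaks absent from E545K, at 20.3% against an upper bound of 20.0%.

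In terms of genes, a strong E545K peak without a WT partner occurred in 1 of 10 windows (NFKB2), against 8.64% of all genes, and a strong WT peak without an E545K partner in 1 (REL), against 7.38%. For H1047R against WT there were 3 (NFKB2, RELB and TNFAIP3), against 11.0% of all genes, and in the other direction 1 (REL), against 4.32%. For E545K against H1047R there was 1 (NFKBIZ), against 5.73%, and in the other direction 4 (NFKB2, RELB, NFKBIE and TNFAIP3), against 11.8%. The member windows held 8 to 21 peaks in E545K, 8 to 18 in H1047R and 9 to 18 in WT, with medians of 13, 15 and 12, where all genes had medians of 8, 9 and 9. A fuller window has more room for such a peak, and its part in these counts was not tested.

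In covered bases, NFKBIZ, TNFAIP3 and, over the gene body, RELA passed a cut of 1.5-fold in at least 1 comparison of lists. The windows as a whole were covered over 10.2% in E545K, 10.1% in H1047R and 9.25% in WT. At a difference of 1.5-fold or more in window coverage, 0 of the 10 genes passed for E545K over WT (6.54% of all genes) and 0 for WT over E545K (5.98%). TNFAIP3 passed for H1047R over WT, with a ratio of 1.77, against 5.95% of all genes. NFKBIZ passed for WT over H1047R (2.89% of all genes) and for E545K over H1047R (5.97%), with H1047R at 0.655 times WT and 0.594 times E545K. For H1047R over E545K 0 passed, against 8.40% of all genes. Counts of 0 or 1 among 10 genes cannot be told from such shares.

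Over the gene body alone, E545K exceeded WT by 1.5-fold or more at RELA (ratio 1.53), NFKBIZ (1.57) and TNFAIP3 (2.08), against 9.93% of all genes, and WT exceeded E545K at 0 (10.9%). H1047R exceeded WT at TNFAIP3 (2.03), against 10.9%, and WT exceeded H1047R at NFKBIZ, where H1047R was at 0.542 times WT, against 5.60%. E545K exceeded H1047R at RELA and NFKBIZ, where H1047R was at 0.653 and 0.346 times E545K, against 8.24%, and H1047R exceeded E545K at 0 (15.3%). With the small peaks removed, those under 2 times the smallest area, the TNFAIP3 body ratio was 1.33 for E545K over WT and 1.45 for H1047R over WT, and that of NFKBIZ for E545K over WT was 1.34. The generally wider peaks of the E545K list move with its larger body coverage, and their part was not tested.

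**Figure D4:**
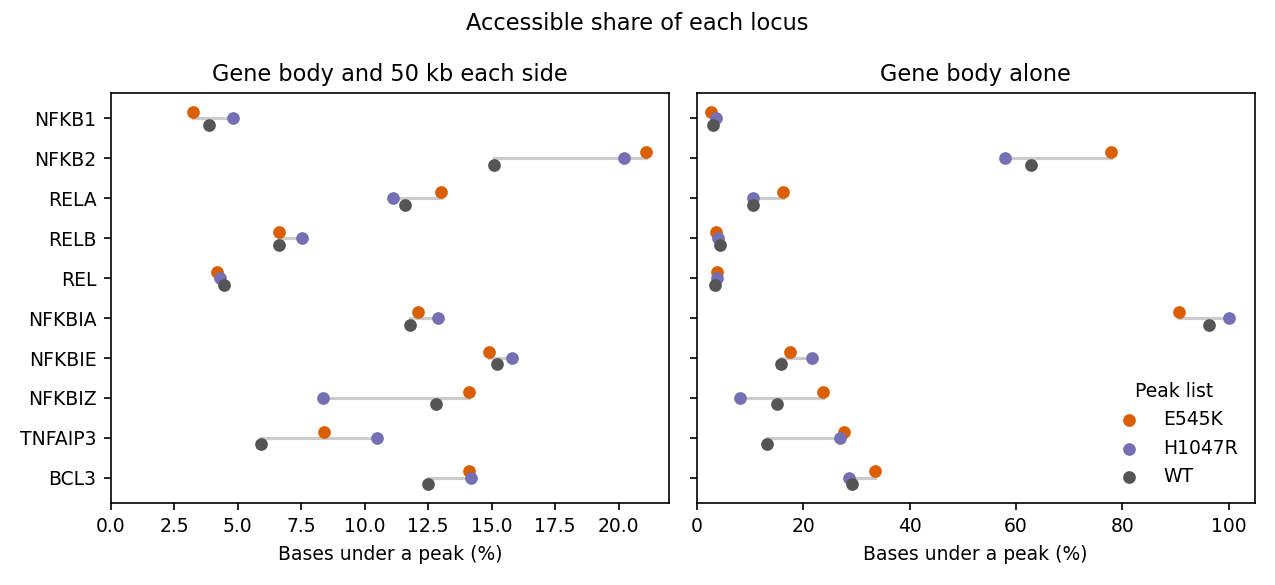
Share of bases under a peak (x axis, %) in the window of each gene (left) and in its gene body (right), with 1 point for each of the E545K, H1047R and WT lists and a grey line over their range. In gene bodies the lists lie far apart at NFKB2 (77.9%, 58.0% and 62.9% in E545K, H1047R and WT), NFKBIZ (23.7%, 8.19% and 15.1%) and TNFAIP3 (27.6%, 26.9% and 13.3%), and close together at RELB and REL.

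The peaks of these windows include the promoter peaks of the 10 genes, some of whose κB matches are shown above. Shares without those promoter peaks were not computed. The κB motif was more frequent in the window peaks than in the lists. It occurred in 32.8% (24.6 to 41.9) of the 122 E545K peaks against 20.0% of the E545K list, in 32.3% (24.5 to 41.0) of the 133 H1047R peaks against 17.1%, and in 28.8% (21.1 to 37.6) of the 125 WT peaks against 17.0%. The peaks of the windows were wider, with median widths of 739.5, 632 and 669 bp in E545K, H1047R and WT against 539, 466 and 466 bp in the lists. Within 100 bp of the summit the shares were 11.5% (6.42 to 18.5) against 5.18% in E545K, 9.77% (5.31 to 16.1) against 5.32% in H1047R and 10.4% (5.65 to 17.1) against 4.94% in WT. The list's share lay below the interval in E545K and WT and at its lower bound in H1047R. The AP-1 motif did not share this pattern: over whole peaks it stood in 39.3%, 47.4% and 44.8% of E545K, H1047R and WT peaks of the windows, against 44.5%, 47.3% and 45.2% of the lists. Within 100 bp of the summit the AP-1 shares were 23% (15.8 to 31.4) against 32.5% in E545K, 33.1% (25.2 to 41.8) against 36.9% in H1047R and 29.6% (21.8 to 38.4) against 34.4% in WT. In E545K the list's share lay above the interval.

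The matches are given by the lists whose peaks overlapped them by at least 1 bp, and matches that overlap each other count separately. In all 3 lists were 65.1% of window regions and 61.2% of all regions, shares that count regions and not matches. Of 97 κB matches in the peaks of the windows, 73 lay in peaks of all 3 lists, 8 in both mutant lists, 5 in E545K and WT, 1 in H1047R and WT, 2 in E545K alone, 8 in H1047R alone and 0 in WT alone. Of the 17 matches of the strict form 14 lay in peaks of all 3 lists. In each list the promoter peaks of every one of the 10 genes held at least 2 matches, which for RELA lay outside the 300 bp promoter sequence. These promoter peaks were wide, and the same share over the promoter peaks of all genes was not computed.

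**Figure D5:**
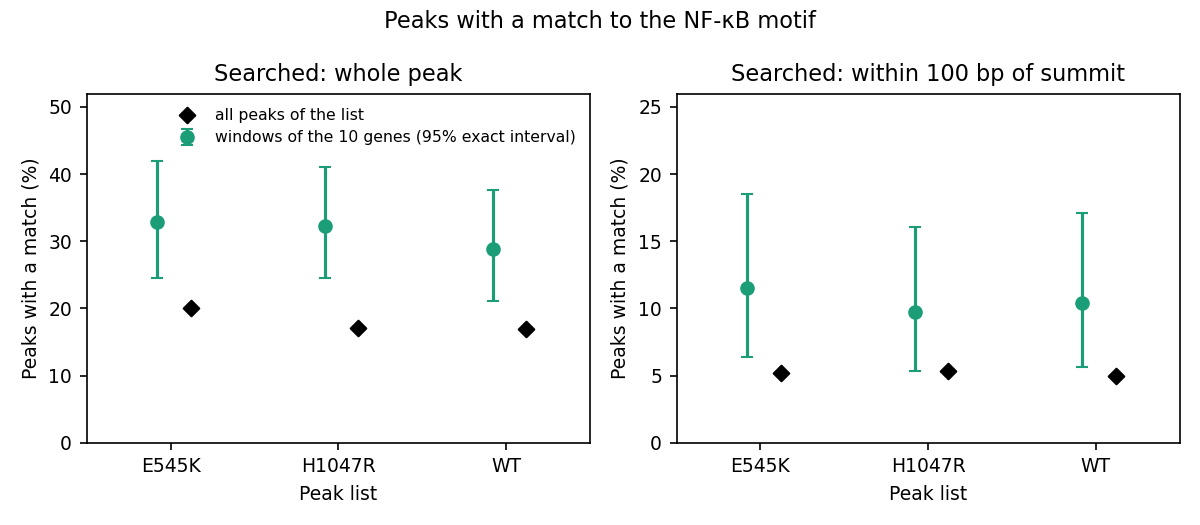
Share of peaks (y axis, %) with a κB match in the whole peak (left) or within 100 bp of the summit (right) in the E545K, H1047R and WT lists; circles with bars are the peaks in the windows of the 10 genes with exact 95% intervals (counting error only) and diamonds all peaks of the list. The circles stand at 28.8% to 32.8% on the left and 9.77% to 11.5% on the right, above the diamonds in each list.

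Of 31 other pathway genes, which are receptors, adaptors, kinases and further inhibitors, 27 had a promoter peak in each list, against the 65.5% of all genes, and NFKBID, TNFRSF1B and CD40 had none. TRAF1, a receptor adaptor, had a small one in E545K alone (area 237.7). A strong peak without a partner occurred at 1 of the 31 for E545K against WT, 4 for WT against E545K, 3 for H1047R against WT, 0 for WT against H1047R, 1 for E545K against H1047R and 5 for H1047R against E545K. The shares of all genes were 8.64%, 7.38%, 11.0%, 4.32%, 5.73% and 11.8% in the same order.

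Of 19 genes known as NF-κB targets, 15 had a promoter peak in each list, against the same 65.5%, and CCL2 and TNF in none. CCL20, which encodes a chemokine for CCR6-bearing cells, had a promoter peak in H1047R (area 1423) and WT (306.7) and not in E545K, and 3 strong H1047R peaks in its window had no partner in WT and 3 none in E545K. LTB, which encodes lymphotoxin β, had one (area 860.1) that was in the WT list and in neither mutant list. CFLAR, which encodes the caspase inhibitor c-FLIP, had 2 strong E545K peaks and 1 strong H1047R peak without a WT partner. Over the 19 genes a strong peak without a partner occurred at 2 for E545K against WT, 2 for WT against E545K, 3 for H1047R against WT, 1 for WT against H1047R, 1 for E545K against H1047R and 7 for H1047R against E545K. The shares of all genes given above for these 6 comparisons are the ones to read these counts against. Windows of neighbouring genes overlap, as for TNF and LTB here and for BIRC2 and BIRC3 among the other pathway genes. The same peak can thus count at more than 1 gene, and its part in these counts was not tested.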

How the data were processed

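The 6 ATAC-seq samples of MCF-10A cells (2 per genotype) are represented by 3 deposited peak lists, 1 per genotype and pooled over its samples. Per the submitters' processing notes, reads were trimmed with Trim Galore 0.4.0 and cutadapt, checked with FastQC, handled with SAMtools and called with Genrich 0.6.1 on hg38; an aligner was not given in the sources used here. The authors' peak caller wrote the area of a peak as a score and its summit significance as −log10 p in the deposited lists. Both are the authors' values; peaks were ranked and filtered by them only within a list, and areas of different lists are printed side by side as descriptions. The summit position, another deposited column, placed the motif search. The smallest area was 200 in each list, and the lists hold the 22 autosomes. Depth per sample is unknown.

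Gene models were those of GENCODE release 44. A partner was any peak of another list overlapping by at least 1 bp, a strong peak one of the upper 50% of a list by area, and a promoter the canonical start ± 1 kb. The work was done in Python 3.11.15 (numpy 2.4.6 and pandas 2.3.3 for counts, scipy 1.17.1 for intervals, matplotlib 3.10.9 for plots). Overlaps matched those of bedtools 2.31.1 in 12 counts, with 0 differences. When the WT list was set against a simulated copy lacking 2000 peaks, 2000 were recovered as unpartnered and 0 of 96910 others were. Promoter sequences came from RefSeq and peak sequences from the GRCh38 reference. The genes, the other pathway genes and the markers were chosen with earlier results of these data known. All 10 genes are described; of the other pathway genes those with a promoter peak in some lists and those with most strong unpartnered peaks are named. Alternatives varied the peak threshold, list length, overlap, window, promoter width and motif form.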

Additional observations from a re-analysis of the deposited data

How the results depend on the processing

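No paired analysis was possible because each genotype has 1 pooled list without values per sample; for the same reason no sample could be left out. All 10 promoters kept a peak in each list at every width, threshold and list length tried, and by summit at least 8 did. Covered shares of the windows stayed within 1.5 times in all 12 alternatives. Counting only strong peaks by area, the shares without a partner were 1.37% (E545K, no WT partner), 1.35% (WT, no E545K), 4.71% (H1047R, no WT), 1.35% (WT, no H1047R), 2.74% (E545K, no H1047R) and 4.71% (H1047R, no E545K), against 2.55%, 2.13%, 2.95%, 1.4%, 1.6% and 2.87% of the lists. With strength by summit value they were 0.0%, 0.0%, 1.2%, 0.0%, 0.0% and 3.61% in the same order, against 1.46%, 1.81%, 2.06%, 0.947%, 0.526% and 2.37%. In gene bodies alone they were 24.3% (E545K, no WT partner, 9 of 37 peaks) and 21.6% (E545K, no H1047R, 8 of 37 peaks). The same shares over all gene bodies were not computed. The E545K peaks of NFKBIZ past its promoter peak, described above, are among those without an H1047R partner. With lists of equal length H1047R peaks without an E545K partner came to 12.0%, against 14.8% of the list. The other 45 of 60 alternative shares stayed inside the exact interval of the share reported; of these, 2 moved by over 1.5 times, E545K peaks without an H1047R partner to 6.9% at the stricter threshold and E545K peaks without a WT partner to 20.0% in windows of 10 kb. Strong peaks without a partner, summed over the 6 ordered pairs, numbered 13 by area, 4 by summit value and 20 when a partner had to cover 50% of the peak. κB shares near the summit were 11.5%, 9.77% and 10.4% in E545K, H1047R and WT. For the strict form over whole peaks they were 9.02%, 9.77% and 8.0%, against 3.62%, 3.39% and 3.13% of the lists. The cause of these moves was not tested. Pooled lists limit what can be said: a peak just under the caller's threshold cannot be told from closed chromatin.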
